A study of Mus musculus with 18 samples.

Results

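The retinal transcriptome of WT mice given NACET was set against the transcriptomes of all other mice of the study together. The 6 libraries labelled as WT with NACET were chosen by their titles and compared with the 12 libraries of the WT, Akita and Akita + NACET groups, out of 18 libraries in all. For each of 16183 genes tested, the question was whether WT + NACET stood apart from the other 3 groups, which genes did so, where these genes lie in the genome, and how genes named in connection with differences among C57BL/6 substrains behaved.

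All mice were male. WT mice (3 libraries) and WT + NACET mice (6 libraries) carry the same strain label, C57BL/6J. Akita mice (4 libraries) and Akita + NACET mice (5 libraries) are labelled C57BL/6-Ins2Akita/J and are heterozygous for a missense allele of the insulin gene Ins2, which makes them diabetic. NACET was dissolved in drinking water (0.33 mg/mL), the daily dose came to 50 mg/kg, and treatment began at 4 weeks of age and ended at 24 weeks. Untreated groups drank water alone. Per the study's methods, WT and Akita mice came from The Jackson Laboratories and were assigned at random to water or NACET at 4 weeks of age. Each library was made from poly(A) RNA of retina. The labels do not tie libraries to litters or to separate animals, so p-values measure the spread between these libraries.

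NACET is the ethyl ester of N-acetylcysteine. It enters cells more readily than the parent compound and is cleaved inside them, which supplies cysteine for the synthesis of glutathione, the main thiol antioxidant. The retina holds photoreceptors, several classes of interneuron, ganglion cells, Müller glia, microglia and vessels, and it rests on the pigment epithelium, traces of which can come along when the retina is dissected. C57BL/6 mice are kept as substrains, such as C57BL/6J and C57BL/6N, which differ at a number of known genes. C57BL/6J mice carry a deletion within Nnt, the mitochondrial transhydrogenase that makes NADPH, and a small intronic deletion that lowers Gabra2, a subunit of the GABA-A receptor.

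Counts in genes ranged from 13629767 to 17482670 in the 6 WT + NACET libraries and from 11495596 to 17814480 in the other 12. The share of reads outside exons averaged 12.7% in WT + NACET and 14.7% elsewhere, a difference of -2.01 percentage points (two-sided exact permutation test, p = 0.179, adjusted p = 0.359 over 2 measures). WT + NACET replicate 5 (-60.0) and Akita + NACET replicate 5 (35.7) stood apart on the first principal component, and Akita replicate 4 (53.5) on the second. Counts with these 3 libraries left out are given beside those they move by over 1.5 times. WT replicate 2 (-37.2) and WT + NACET replicate 3 (31.4) were kept. On the second component both lay further out than Akita + NACET replicate 5 (-30.3), so the choice of the 3 is not the only one possible. Retinal identity was clear in all 18 libraries, with a summed level of 8 rod markers from 85160 to 200358 CPM (counts of a gene per 1000000 counts in genes, with TMM-scaled library sizes).

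WT + NACET differed from the average of the other 3 groups at 1572 genes, or 9.71% of the genes tested, of which 880 (5.44%) were higher and 692 (4.28%) lower (edgeR, adjusted p of at most 0.05). A stricter criterion asked in addition that all 6 CPM values lay above, or all below, those of the other 12 libraries. It was met by 190 genes (1.17%), called set apart here, of which 125 were higher and 65 lower. Most of these differences were small. The fold change was below 1.5 in 101 genes, between 1.5 and 2 in 37, at least 2 in 52 (0.321% of genes tested) and at least 4 in 17. The gap between the nearest library of WT + NACET and the nearest of the others was likewise narrow, with a median of 1.06-fold, and exceeded 2-fold in 10 genes. Nearest to the threshold lay Lonp2, inside it with an adjusted p of 0.0448, and Jun and Casc4, which did not overlap but had adjusted p of 0.0601 and 0.0647. With the 3 libraries that stand apart left out, 999 genes were called and 260 were set apart. The demand of no overlap is easier to meet with fewer libraries, so nothing is read from the higher number set apart. With the outside-exon share of each library as a covariate, 774 were called and 173 set apart.

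The same contrast was formed for each of the other groups. WT against the rest gave 9 genes called (0.0556%) and 1 set apart (0.00618%). Akita + NACET against the rest gave 51 called (0.315%) and 12 set apart (0.0742%). Akita against the rest gave 2020 called (12.5%) and 211 set apart (1.3%). The number of set-apart genes in Akita was thus near that in WT + NACET, but 12 of them reached 2-fold in Akita, against 52 in WT + NACET. These contrasts share libraries, and the groups differ in size. The Akita count of genes called fell to 6 with the outside-exon share as a covariate and to 99 without Akita replicate 4. With the 3 libraries that stand apart left out, 62 genes were called in WT, 290 in Akita and 23 in Akita + NACET. DESeq2 on all libraries called more, with 115 genes in WT, 2793 in Akita and 643 in Akita + NACET.

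The single comparisons of WT + NACET with each group are given side by side, and they share the 6 WT + NACET libraries. Of the 190 set-apart genes, 82 were called against WT (1.48% of all genes tested were called there), 145 against Akita (7.32% of all) and 182 against Akita + NACET (13.3% of all). In all 3 comparisons, 69 were called, and 2 were called in none. The 69 became 40 with the outside-exon covariate, 108 with DESeq2 and 44 without WT replicate 1. Among the other 3 groups themselves, 3 of the 190 genes differed (1.58%), against 1265 of all genes tested (7.82%). The demand that libraries do not overlap itself favours genes with close values in those groups, so nothing is read from the lower share.

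The genes with the largest increases are described first. Wdfy1, which encodes an endosomal adaptor of Toll-like receptor signalling (chromosome 1, 79698837 to 79772718, mm9, minus strand), had a lowest value of 89.0, a median of 94.6 and a highest of 103 CPM in WT + NACET, against 12.4, 15.3 and 17.0 CPM in the other 12 libraries. Its 6 values were closely grouped, and the nearest pair of libraries across the divide differed 5.24-fold. The log2 fold change was 2.67 ± 0.06 (SE, adjusted p = 1.13e-17). Fn3krp, a kinase that acts on glycated proteins (chromosome 11, 121282715 to 121292602, plus strand), had 29.2, 60.2 and 70.7 CPM as the lowest, median and highest value in WT + NACET, against 5.53, 6.58 and 8.23 CPM. Its log2 fold change was 3.0 ± 0.15 (adjusted p = 1.00e-10). Replicates 1 and 2 of WT + NACET, at 36.3 and 29.2 CPM, lay below the other 4, which held 56.98 to 70.7 CPM.

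Ntsr2, a neurotensin receptor (chromosome 12, 16660276 to 16667042, plus strand), was close to absent outside WT + NACET. The 12 other libraries had 0 to 4 reads each, with a median of 0.0612 CPM, and the 6 WT + NACET libraries had 13 to 23 reads each, with a median of 1.10 CPM. The log2 fold change was 3.79 ± 0.37 (adjusted p = 1.15e-06). Ntsr2 passed the filter on low counts only through the WT + NACET libraries, so its p-value is no separate support for the difference. Gm4419, a long noncoding RNA on the same chromosome (21423772 to 21425664, plus strand), had 3.04 to 6.44 CPM in WT + NACET and 0.144 to 0.827 CPM elsewhere, a log2 fold change of 3.48 ± 0.23 (adjusted p = 3.34e-09).

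Edn2 encodes endothelin-2, a peptide that stressed photoreceptors release (chromosome 4, 119833811 to 119839965, plus strand). It had 9.99, 13.8 and 41.9 CPM as the lowest, median and highest value in WT + NACET, against 2.92, 3.82 and 6.97 CPM. All 6 libraries lay above the rest, yet they varied among themselves more than most set-apart genes did, with 41.9 CPM in replicate 2, 25.6 in replicate 3 and 9.99 in replicate 4. The log2 fold change was 2.19 ± 0.26 (adjusted p = 7.83e-05).

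Bcl3, an atypical member of the IκB family that modulates NF-κB, had 1.19 to 4.43 CPM in WT + NACET and 0.215 to 0.912 elsewhere (log2 fold change 2.58 ± 0.28, adjusted p = 5.90e-06). Slc6a2, the noradrenaline transporter, had 1.76 to 3.19 CPM against 0.196 to 1.22 (2.53 ± 0.23, adjusted p = 6.70e-07). Cyp4f17, a cytochrome P450 of the fatty acid hydroxylase family, had 4.93 to 8.23 CPM against 1.36 to 3.27 (1.68 ± 0.16, adjusted p = 8.28e-07). In each of the 3 genes every WT + NACET library lay above every other library, as the criterion for set-apart genes requires.

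A few noncoding or unplaced transcripts completed the increases. Gm12541 had 4.65 to 10.4 CPM against 1.19 to 2.61 (log2 fold change 1.74 ± 0.17), NR_045365 had 1.41 to 4.17 CPM against 0.542 to 1.26 (1.90 ± 0.20), and Gm10475 had 1.60 to 3.33 CPM against 0.120 to 0.808 (2.60 ± 0.24). Like Ntsr2, Gm10475 passed the filter on low counts only through WT + NACET. Gm12541 overlaps Fgf2 and Gm10475 overlaps Reln on the opposite strand, and reads were counted over exons without regard to strand. Overlap was taken from whole genes, not from exons, so how far reads of the partners enter these counts is uncertain. The same limit holds for other genes named here that overlap an annotated gene on the opposite strand, among them Wdfy1, Bcl3, Kcnj13, Gfap, Acp1, Gm9493, Pate2, Tmem181b-ps, Dynlt1b, Jak3, Cherp, Nup133, BC003331 and Rgl1.

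Kcnj13 encodes Kir7.1, a potassium channel of the pigment epithelium (chromosome 1, 89282938 to 89291304, minus strand). It had 23.7, 30.8 and 57.6 CPM in WT + NACET, against 1.91, 7.01 and 22.7 CPM in the other libraries, so that the groups were barely apart (log2 fold change 1.90 ± 0.45, adjusted p = 0.0171). Its call was lost with the replicate block (adjusted p = 0.0574) and with the outside-exon covariate (0.0540). The 6 markers of the pigment epithelium summed to 346 to 1500 CPM in WT + NACET and to 61.3 to 699 CPM elsewhere, and 4 of the 6 were called higher, namely Lrat, Rdh5, Rgr and Ttr, against 5.44% of all genes tested. The call of Ttr was lost in 14 of 27 alternatives. Rpe65 (1.52 ± 0.48, adjusted p = 0.0619) and Best1 (0.05 ± 0.22, adjusted p = 0.914) were not called. The part of adhering pigment epithelium in the Kcnj13 difference was not tested.

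**Figure D1:**
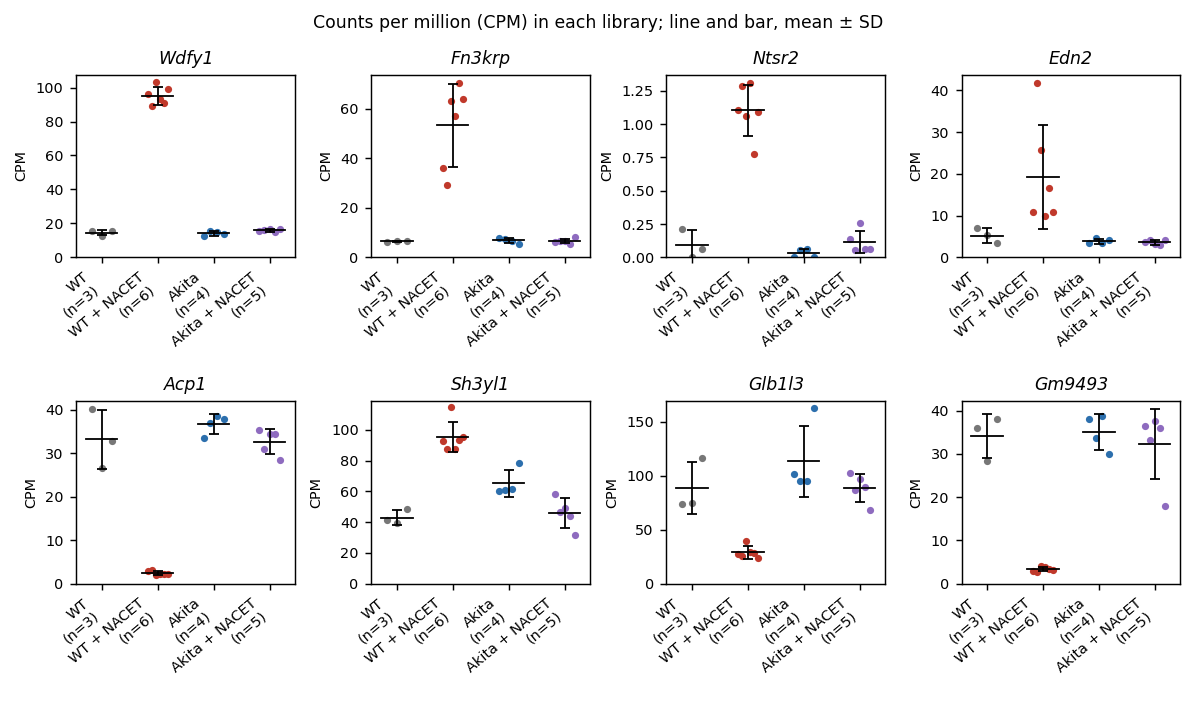
CPM of 8 genes in each of the 18 libraries, in 1 panel a gene with its own axis from 0. Points are libraries, horizontal lines are group means and bars the SD. The red WT + NACET points lie above all others in Wdfy1, Fn3krp, Ntsr2, Edn2 and Sh3yl1 and below all others in Acp1, Glb1l3 and Gm9493.

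Acp1 and Rec8 were among the largest decreases. Acp1, a low molecular weight protein tyrosine phosphatase (chromosome 12, 31578191 to 31596477, minus strand), had 2.05, 2.25 and 3.14 CPM as the lowest, median and highest value in WT + NACET, against 26.7, 34.4 and 40.1 CPM. The nearest libraries of both sides differed 8.49-fold. The log2 fold change was -3.78 ± 0.11 (adjusted p = 1.89e-15). Rec8, a cohesin subunit of meiosis (chromosome 14, 56236874 to 56244232, plus strand), had 40 to 124 reads in each of the other 12 libraries. In WT + NACET it had 0 or 1 read in 4 libraries, 4 reads in replicate 4 and 17 reads in replicate 3, or 1.29 CPM, so the 6 libraries were not alike. The log2 fold change was -4.35 ± 0.51 (adjusted p = 4.85e-05).

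Glb1l3, a galactosidase-like gene (chromosome 9, 26625538 to 26668408, minus strand), fell from a level that was well measured. It had 24.0, 27.7 and 39.8 CPM in WT + NACET, against 68.3, 95.0 and 163 CPM elsewhere (log2 fold change -1.74 ± 0.15, adjusted p = 1.15e-06). Pate2 had 2.45 to 4.02 CPM against 5.10 to 15.7 (-1.27 ± 0.17), and Gsc2, a homeobox gene, had 3.68 to 4.97 CPM against 6.82 to 14.3 (-1.24 ± 0.15). The noncoding 1810010K12Rik had 0.273 to 1.43 CPM against 1.68 to 3.73 (-1.33 ± 0.27), and the unplaced 2010109K11Rik had 0.643 to 0.921 CPM against 1.33 to 2.89 (-1.30 ± 0.20). By the criterion for set-apart genes, all 6 WT + NACET libraries lay below the other 12 in each.

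Several of the decreases concern genes with close copies, for which reads that align to more than 1 place were not counted. Gm9493, a gene model of chromosome 19 (23694232 to 23694810, plus strand), had 2.72, 3.23 and 4.02 CPM in WT + NACET, against 17.96, 35.9 and 38.7 CPM (log2 fold change -3.33 ± 0.16, adjusted p = 1.06e-11). Of its stretches of 50 bases, 74.9% also occur in the transcripts of Rps7, a ribosomal protein gene of chromosome 12, so the split of reads between both is uncertain. Rps7 itself, looked up after these values were seen, had 11.8 to 16.9 CPM in WT + NACET and 3.92 to 11.99 elsewhere, a higher level with overlap between the groups (0.57 ± 0.15, adjusted p = 0.0195).

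Tmem181b-ps (chromosome 17, 6439626 to 6489526, minus strand) had 0.475 to 0.607 CPM in WT + NACET and 3.81 to 7.66 CPM elsewhere (log2 fold change -3.24 ± 0.17, adjusted p = 3.44e-11). It shares 50.3% of its 50-base stretches with Tmem181a, which had a log2 difference of 0.0003 ± 0.10 (adjusted p = 0.999). Its neighbour Dynlt1b, a dynein light chain gene (6429221 to 6435441, plus strand), was below the level set for naming genes and is added after its values were seen. It had 0 reads in all 6 WT + NACET libraries and 4 to 16 reads in each of the other 12. Set against a floor of 3 reads over the 6 libraries (0.0324 CPM), it was at least 22.1-fold lower. Dynlt1b shares 78.9% of its 50-base stretches with other genes, chiefly Dynlt1a, for which the log2 difference was 0.30 ± 0.20 (adjusted p = 0.350).

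The set-apart genes were then placed on the genome. Of the 190, 186 had a single place in the mm9 annotation, and 90.9% of these were protein coding, against 88.5% of the placed genes tested. Among the 50 placed genes with at least a 2-fold difference, 37 (74.0%) were protein coding, and the remainder were noncoding RNAs and pseudogenes. Set-apart genes lay on every autosome and on the X chromosome. Their share of the genes tested was 1.17% over all placed genes, and by chromosome it ran from 0.497% on chromosome 15 to 2.71% on chromosome 12, where 15 of 554 tested genes were set apart. Chromosome 1 followed with 1.97% (18 genes) and chromosome 5 with 1.69% (17 genes).

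**Figure D2:**
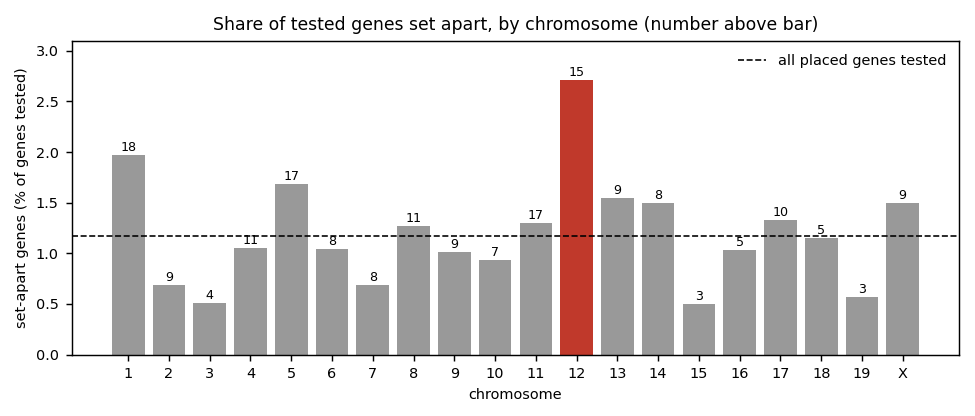
Share of the tested genes of each chromosome that were set apart in WT + NACET, in percent, with the number of such genes above each bar. The dashed line marks the share over all placed genes (1.17%), and the red bar is chromosome 12, with 2.71%.

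Within chromosomes, at least 3 set-apart genes with starts no more than 2 Mb from the next were counted as a run. There were 11 runs with 38 genes, and 3 of the 11 lay in the first part of chromosome 12. Tested genes of a run were counted from the start of its first set-apart gene to that of its last. Both ends are thus set apart by the rule, short runs come out dense, and the shares are a description. The run with the largest share held Gm4419, RP23-71I22.5 and 2410018L13Rik, which were 3 of the 4 genes tested there. The next held Acp1, Sh3yl1, Bcap29 and Dus4l, 4 of 9 tested, and the third held Lpin1, Ntsr2, Nol10 and 5730507C01Rik, 4 of 14 tested. A stretch from 16 to 34 Mb, set after these runs were seen, held 71 tested genes, of which 27 were called (38.0%), 13 higher and 14 lower, and 11 were set apart (15.5%), 6 of them by at least 2-fold. Over the rest of chromosome 12, 51 of 483 tested genes were called (10.6%) and 4 were set apart (0.828%). The stretch was chosen for its density, so these shares are a description. The shares of runs and stretch include Ntsr2 and RP23-71I22.5, which passed the filter on low counts only through WT + NACET.

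Genes of the stretch changed in both directions, with increases and decreases interspersed. RP23-71I22.5, an annotated pseudogene, rose from 0 to 0.215 CPM in the other libraries to 0.284 to 1.23 CPM in WT + NACET (log2 fold change 3.63 ± 0.51, adjusted p = 0.000144), on 61 reads in 6 libraries against 9 in 12. Because it was tested only through its level in WT + NACET, its p-value is no separate support. The order along the chromosome puts 2410018L13Rik after RP23-71I22.5. The transcript 2410018L13Rik, next to it, had 0 reads in 2 WT + NACET libraries and up to 1.19 CPM in replicate 4, against 1.28 to 3.53 CPM elsewhere (-2.88 ± 0.51, adjusted p = 0.00214). 5730507C01Rik had 0 reads in 4 of the 6 libraries and 0.379 and 0.341 CPM in replicates 3 and 4, against 0.383 to 1.65 CPM elsewhere (-3.04 ± 0.58, adjusted p = 0.00315).

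Replicates 3 and 4 thus held the 2 highest WT + NACET values of Rec8, of 2410018L13Rik and of 5730507C01Rik. They also held the 2 lowest values of RP23-71I22.5, at 0.304 and 0.284 CPM, and of Gm4419, at 3.04 and 3.46 CPM. These genes were among those named for their size or spread, and the pattern was noticed after their values were seen.

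Other set-apart genes of the stretch had smaller differences. Lpin1, a phosphatidate phosphatase, had 42.9 to 50.3 CPM against 51.7 to 81.7 (-0.33 ± 0.08), Nol10 had 19.8 to 22.8 CPM against 14.1 to 18.3 (0.36 ± 0.07), and Bcap29, a protein of the endoplasmic reticulum membrane, had 68.1 to 85.1 CPM against 47.0 to 61.9 (0.50 ± 0.06). Dus4l, a tRNA dihydrouridine synthase, followed Bcap29 with 13.0 to 17.1 CPM against 8.11 to 13.0 (0.46 ± 0.10). Among the called genes of the stretch whose libraries overlapped, E2f6, a transcriptional repressor, had the largest increase (1.13 ± 0.17, adjusted p = 0.000518).

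**Figure D3:**
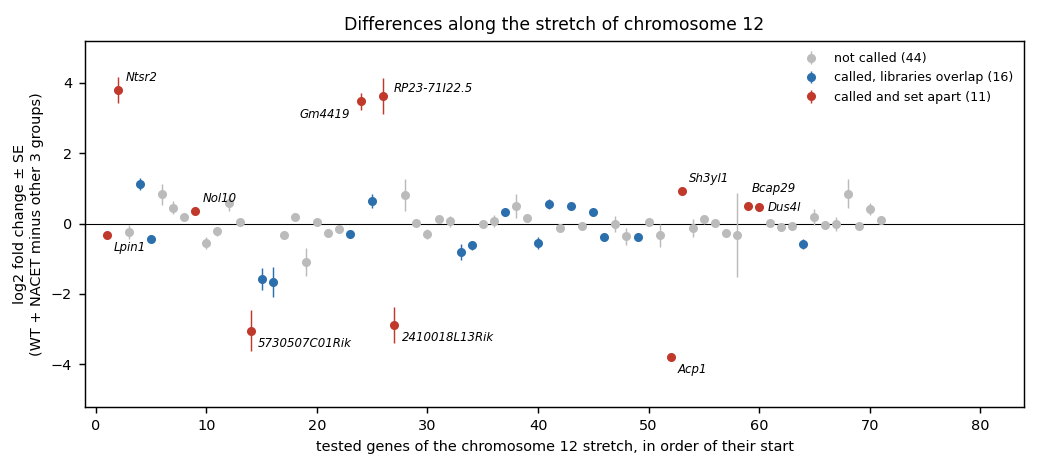
Log2 fold change, WT + NACET minus the average of the other 3 groups, with its SE, for the 71 genes tested in the chromosome 12 stretch, in the order of their starts. Red genes are called and set apart (11), blue genes are called with overlapping libraries (16) and grey genes are not called (44), with increases and decreases interspersed.

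Acp1 and Sh3yl1 lie head to head. Acp1 is read from the minus strand and starts at 31596477, Sh3yl1 from the plus strand with its start at 31596533, and 55 bases lie between both starts (chr12:31596478-31596532, mm9). The interval is shown because the 2 genes that share it moved in opposite directions. It was read from the mm9 genome, plus strand, with the 55 bases in capitals and 30 bases of each gene in lower case (chr12:31596448-31596562).

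Acp1-Sh3yl1 interval: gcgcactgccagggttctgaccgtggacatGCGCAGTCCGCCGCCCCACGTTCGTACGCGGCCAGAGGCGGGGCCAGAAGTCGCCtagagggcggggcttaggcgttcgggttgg

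The window of 115 bases has 70.4% G and C and 14 CpG dinucleotides. Sh3yl1, which encodes a phosphoinositide-binding protein with an SH3 domain, had 87.9, 93.2 and 115 CPM in WT + NACET, against 31.9, 48.8 and 78.5 CPM elsewhere (log2 fold change 0.91 ± 0.10, adjusted p = 3.52e-06). Both genes are set apart, so all 6 libraries were above the others for Sh3yl1 and all 6 were below for Acp1. The values that came nearest to WT + NACET for Sh3yl1 were those of Akita, at 60.2 to 78.5 CPM.

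In the other runs set-apart genes were a smaller share of the tested genes, counted in the same way. On chromosome 8, Bst2, Jak3 and Cherp were 3 of 28 tested genes, and Trappc2l, Mc1r, Nup133 and Ttc13 were 4 of 44. Bst2, the interferon-induced tetherin, had 4.26 to 7.22 CPM against 1.63 to 3.92 (log2 fold change 1.06 ± 0.15), Jak3, a cytokine receptor kinase, 1.48 to 2.73 CPM against 0.447 to 1.36 (1.29 ± 0.22), and Mc1r, the melanocortin 1 receptor, 3.48 to 5.77 CPM against 1.5 to 2.74 (1.31 ± 0.14). Trappc2l, a trafficking protein, had 57.1 to 81.2 CPM against 26.1 to 45.1 (0.83 ± 0.09). Trappc2l and Mc1r both overlap Gm20388 on the same strand and Nup133 overlaps it on the other, so their counts are uncertain.

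On chromosome 11, Naglu, Ezh1 and Gfap were 3 of 57 tested genes. On chromosome 5, Gabra2, Nipal1 and Sgcb were 3 of 17, and a looser group of 5 (Gtf2i, Tbl2, Srrm3, Srrt and 0910001L09Rik) stood among 87 tested genes. The runs on chromosome 1 (BC003331, 1190005F20Rik and Rgl1), chromosome 16 (Ube2v2, Crkl and Gsc2) and further along chromosome 12 (Acot1, Ptgr2 and Acyp1) held 3 genes each among 15, 41 and 31 tested. In these last runs the log2 fold changes lay between -0.41 and 0.57 except for Gsc2. Acot1 shares 47.1% of its 50-base stretches with other genes, chiefly Acot2, so its counts are uncertain. With 1 Mb as the largest distance 7 runs remained, with 5 Mb there were 22, and with genes of at least 2-fold alone there was 1. With the 3 libraries that stand apart left out there were 19, but fewer libraries make the demand of no overlap easier to meet.

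The C57BL/6 substrain list had 11 genes, of which 9 passed the filter on low counts. Of the 9, 3 were called higher and 3 lower, against 5.44% and 4.28% of all genes tested. The list was chosen with earlier results of these data known, so these numbers are a description. Strain labels were the same for WT and WT + NACET. Counts per gene show levels, not alleles, so they cannot place an animal in a substrain.

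The 3 genes that rose were all set apart. Wdfy1 is described above. Gabra2 (chromosome 5, 71352296 to 71487088, minus strand) had 16.2, 19.03 and 22.6 CPM as the lowest, median and highest value in WT + NACET, against 3.65, 7.11 and 11.4 CPM, a log2 fold change of 1.43 ± 0.14 (adjusted p = 1.75e-06). Against WT alone, its adjusted p was 0.0122. Nnt (chromosome 13, 120124255 to 120197804, minus strand) had 16.3, 19.9 and 23.8 CPM, against 7.05, 10.4 and 14.8 CPM (0.86 ± 0.12, adjusted p = 0.000178). A part of substrain in the levels of both genes was not tested.

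The 3 genes that fell did so by less and with overlap between the groups. Entpd4, an endomembrane nucleotidase, had 72.8 to 98.7 CPM against 89.4 to 112 (-0.34 ± 0.07, adjusted p = 0.00376). Ide, the insulin-degrading enzyme, had 88.2 to 110 CPM against 85.7 to 208 (-0.44 ± 0.11, adjusted p = 0.0174). Fgfbp3 had 19.1 to 24.3 CPM against 17.5 to 36.7 (-0.44 ± 0.14, adjusted p = 0.0492), and its call was lost in 18 of 27 alternatives. Ide was at 144 to 208 CPM in Akita. In Akita + NACET, replicates 1 to 3 had 85.7 to 97.0 CPM of Ide and 17.5 to 18.5 CPM of Fgfbp3. Replicates 4 and 5 of that group had 131 and 146 CPM of Ide and 29.0 and 35.9 CPM of Fgfbp3. Low levels of these genes were thus not particular to WT + NACET.

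Crb1, in which C57BL/6N mice carry a retinal degeneration allele, had 564 to 694 CPM in WT + NACET and 366 to 835 CPM elsewhere (0.34 ± 0.11, adjusted p = 0.0601), and it was called higher in 7 of 27 alternatives. Cyfip2, with a coding variant in C57BL/6N, had 178 to 238 CPM against 183 to 251 (-0.05 ± 0.07, adjusted p = 0.720). Dock2 had 0.454 to 1.57 CPM against 0.414 to 0.884 (0.58 ± 0.26, adjusted p = 0.154). Mmrn1, with 0 to 3 reads per library, and Nlrp12, with 0 to 4, were too low to test.

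**Figure D4:**
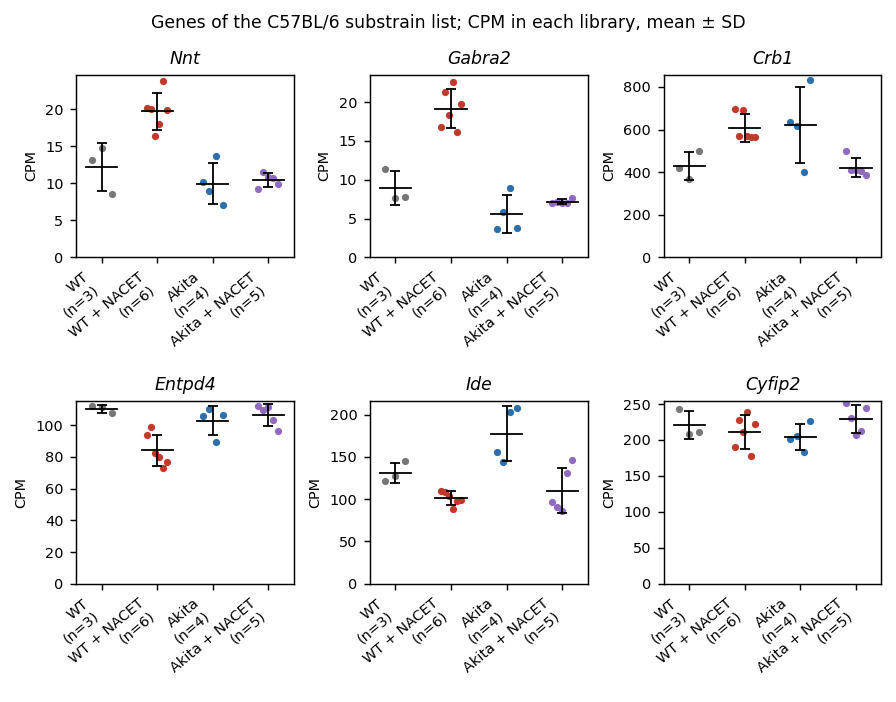
CPM of 6 genes of the C57BL/6 substrain list in each library, with group means and SD, in panels with their own axes from 0. WT + NACET lies above every other library in Nnt and Gabra2 and overlaps the other groups in Crb1, Entpd4, Ide and Cyfip2.

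Lists of genes tied to the treatment and to retinal cell types were read in the same way, beside the 5.44% of genes called higher and 4.28% called lower. They too were chosen with earlier results of these data known. Of 29 tested targets of NRF2, the transcription factor of the antioxidant response, 1 was called. It was Cat, the peroxisomal catalase, which was set apart with 42.1 to 47.6 CPM against 27.1 to 36.2 (0.54 ± 0.07, adjusted p = 2.72e-05). Hmox1 (0.50 ± 0.18, adjusted p = 0.0812) and Nqo1 (0.50 ± 0.17, adjusted p = 0.0676) did not pass, and Gclc and Gclm, the subunits of the enzyme that starts glutathione synthesis, had log2 differences of -0.07 ± 0.11 and 0.09 ± 0.08. The list's median log2 difference was 0.09, against 0.002 over all genes.

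Of 24 genes of cysteine and glutathione metabolism, 2 were called higher. Slc1a1, which takes up cysteine and glutamate, had 46.1 to 99.3 CPM against 25.3 to 68.1 (0.69 ± 0.16, adjusted p = 0.0129). Glrx2, the mitochondrial glutaredoxin, had 126 to 147 CPM against 96.4 to 152 (0.22 ± 0.06, adjusted p = 0.0250), and its call was lost in 4 of 27 alternatives. Slc7a11, the cystine transporter, had 1.19 to 14.4 CPM against 0.963 to 8.85 (0.94 ± 0.57, adjusted p = 0.320).

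Of 9 Müller glia markers, 2 were called, and both were set apart. Gfap, the intermediate filament of reactive glia, had 129, 183 and 269 CPM as the lowest, median and highest value in WT + NACET, against 25.9, 62.8 and 117 CPM (1.61 ± 0.28, adjusted p = 0.00309). Against WT alone its adjusted p was 0.0539. Clu, the chaperone clusterin, had 991 to 1230 CPM against 374 to 950 (0.73 ± 0.12, adjusted p = 0.000733). The other members were not called, among them Glul (0.31 ± 0.11, adjusted p = 0.0784) and Aqp4 (0.01 ± 0.09, adjusted p = 0.975). In bulk tissue, more cells of a type and more RNA per cell cannot be told apart, nor can fewer cells and less RNA.

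Of 8 microglia markers, 4 were called higher: the complement genes C1qa (0.80 ± 0.18), C1qb (0.77 ± 0.18) and C1qc (0.57 ± 0.17), and the receptor Csf1r (0.59 ± 0.15). The 8 markers summed to 58.8 to 86.3 CPM in WT + NACET and to 30.4 to 65.7 CPM elsewhere, so libraries overlapped. All 4 calls were lost with the outside-exon share as a covariate, with adjusted p from 0.0502 to 0.164, and that of C1qc in 12 of 27 alternatives. P2ry12, a marker of resting microglia, had 4.24 to 8.11 CPM against 3.65 to 8.47 (0.09 ± 0.13, adjusted p = 0.700).

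Of the 6 pericyte and smooth muscle markers, Rgs5 (0.83 ± 0.15, adjusted p = 0.00235) and Cspg4 (1.66 ± 0.36, adjusted p = 0.00723) were higher, whereas Pdgfrb had a log2 difference of -0.26 ± 0.21 (adjusted p = 0.462). Cspg4 was scarce, with 0.357 to 1.53 CPM against 0.0602 to 0.689, and its libraries overlapped. Kcnj8, Acta2 and Myh11 were not called either. Acta2 and Myh11 were highest in WT + NACET replicate 5, at 34.3 and 11.9 CPM. Of 8 cone markers, Gnat2 (0.38 ± 0.10) and Pde6c (0.32 ± 0.08) were called, and both calls were lost with the covariate. No member was called among the markers of rods (8 tested), bipolar cells (8), amacrine cells (7), horizontal cells (4), ganglion cells (9), endothelium (7), lens (7), skeletal muscle (2) and red blood cells (5). The lens markers nevertheless varied widely and summed to 22075 CPM in WT + NACET replicate 5, against 1.75 to 57.3 CPM in the other 5 libraries of the group. Of 11 interferon and MHC class I genes, B2m (0.73 ± 0.17, adjusted p = 0.0128) was called beside Bst2.

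Among clock and immediate early genes all calls were decreases. Of 14 circadian clock genes 7 were called lower and 0 higher, against 4.28% of all genes called lower. Per1 had 13.3 to 22.51 CPM in WT + NACET, against 20.4 to 43.3 (-0.66 ± 0.14, adjusted p = 0.00682), and the repressor genes Cry1 (-0.44 ± 0.08, adjusted p = 0.00163) and Cry2 (-0.33 ± 0.06, adjusted p = 0.00244) followed. The other 4 were Per2, Tef, Hlf and Bhlhe41, with log2 fold changes from -0.59 to -0.28. Of 27 alternatives, the call was lost in 16 for Per2, in 13 for Hlf, in 7 for Bhlhe41 and in 1 for Tef. With the outside-exon share as a covariate, Per1, Cry1 and Cry2 kept their calls and these 4 lost theirs. Arntl (-0.12 ± 0.08) and Clock (-0.12 ± 0.08), which form the activating pair, were not called.

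Of 8 immediate early genes, which neurons switch on within minutes of stimulation, 3 were called lower. Nr4a1 had 5.31 to 11.3 CPM against 8.04 to 58.7 (-1.71 ± 0.34, adjusted p = 0.00746), Ier2 30.7 to 40.4 CPM against 40.3 to 72.9 (-0.44 ± 0.10, adjusted p = 0.0105) and Npas4 1.01 to 1.84 CPM against 0.414 to 3.83 (-0.95 ± 0.28, adjusted p = 0.0385). The call of Npas4 was lost in 13 of 26 alternatives. Fos had 12.4 to 22.7 CPM against 7.79 to 60.7 (-1.04 ± 0.32, adjusted p = 0.0511). The labels give no time of day of tissue collection.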

How the data were processed

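Retinal poly(A) RNA of 18 libraries was analysed, grouped by the sample labels. Per the study's methods and processing notes, the authors made TruSeq RNA v2 libraries, sequenced them single end, aligned the reads to mm9 with TopHat2 2.1.0 and Bowtie and counted them over exons with HTSeq 0.11.2, without regard to strand. The deposited values are raw read counts per gene, not normalized. Each file held 35006 gene names. Summary entries, an entry without a name (0.00544% of counts) and 185 ribosomal RNA genes (0.977%) were dropped, as in the study. Coordinates are from the mm9 annotation, in which 33643 names (96.1%) were found, and 342 names with more than 1 locus were given no place.

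The main test was edgeR 4.0.16 (quasi-likelihood F test, TMM, expression filter with a minimum count of 10 and a minimum total of 15, robust dispersion) in R 4.3.3, with the 4 groups in 1 fit and a contrast of WT + NACET with the average of the 3 other group means. Adjusted p-values follow Benjamini and Hochberg over all genes tested, with a threshold of 0.05. SE were derived from the F statistic. Levels are CPM. The relative error grows as counts become fewer. Replicates of a group differed by more than sampling noise (chi-square per degree of freedom from 4.67 to 50.8 over 34 pairs), so each library counted once. The tests were tried on simulated data.

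Genes named are the 12 set-apart genes that rose most and the 12 that fell most at a mean of at least 1 CPM, those in runs, the called members of lists, the substrain genes, and the 5 set-apart genes with the widest spread in WT + NACET. Some genes are not reported here and do not enter the counts of lists. Members and lists were chosen with earlier results of these data known. Shared sequence was counted as words of 50 bases in the transcripts of the annotation. Alternatives were DESeq2 1.42.0, its size factors in the edgeR fit, no filter, a mean count of at least 50, ribosomal RNA genes kept, the replicate number as a block, the outside-exon share as a covariate, 2 groups in place of 4, other distances for runs, and each library left out in turn.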

Additional observations from a re-analysis of the deposited data

Results flagged for a closer look

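Of 164 sets of values by group, 10 held a library far from the rest of its group (Dixon's test at the 95% level), and chance alone marks about 1 in 20. In WT + NACET, replicate 3 was high for Rec8, at 1.29 CPM against 0 to 0.227 CPM in the other 5, and for Glb1l3, at 39.8 CPM against 24.0 to 29.3. Replicate 5 was high for the summed lens markers, at 22075 CPM against 1.75 to 57.3 CPM.

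In Akita, replicate 4 was high for Glb1l3, at 163 CPM against 95.0 to 102, and for the summed cone markers, at 4010 CPM against 2655 to 2837. Akita replicate 2 was high for the summed lens markers, at 2661 CPM against 2.03 to 6.66. In Akita + NACET, replicate 5 was low for Gm9493, at 17.96 CPM against 33.2 to 37.6, and for the summed genes of cysteine and glutathione metabolism, at 990 CPM against 1075 to 1100. Replicate 1 of that group was high for Crb1, at 499 CPM against 387 to 412, and replicate 3 for the summed lens markers, at 1175 CPM against 2.004 to 325.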

How the results depend on the processing

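The number of set-apart genes stayed within 1.5 times the main count in the alternatives that kept all libraries (170 to 192), and 179 genes were set apart by both edgeR and DESeq2. Most of the 90 named genes followed were chosen because they were called in these same data, which favours keeping the call. Of the 90, 67 kept their direction and their side of the threshold in every alternative run, among them Dock2, which was not called. One turned sign, Cyfip2, at 0.025 with the 3 libraries that stand apart left out, a choice made after seeing the data. Sampling depth limits genes under about 1 CPM most. With a mean count of at least 50, scarcer genes were not tested at all, and the genes set apart by at least 2-fold numbered 28. For the other changes the cause was not tested.

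The replicate numbers did not pair the samples: of 22 same-numbered pairs 4 had a correlation of deviations above 0.1 (range -0.33 to 0.34). With the replicate block, 927 genes were called, 556 higher and 371 lower, 0 set-apart genes differed among the other groups, and Akita and Akita + NACET had 985 and 10 called. With the outside-exon covariate the numbers were 774, 439, 335, 0, 6 and 7, and 40 set-apart genes were called against all 3 groups. DESeq2 called 1073 genes lower, 108 set-apart genes against all 3 groups, and 115 and 643 genes in WT and Akita + NACET. Without a filter 1 set-apart gene differed among the others, and with a mean count of at least 50, 82 genes were called in Akita + NACET. With the 3 libraries left out, 999 genes were called, 377 lower, runs numbered 19, 0 set-apart genes differed among the others, and WT, Akita and Akita + NACET had 62, 290 and 23 called. Runs numbered 7 at 1 Mb, 22 at 5 Mb and 1 with genes of at least 2-fold alone.

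Leaving out 1 library at a time gave 786 (without WT + NACET replicate 3) to 1800 genes called, 482 to 951 higher and 304 to 906 lower, 192 to 290 set apart (the highest without WT + NACET replicate 1), 51 to 66 by at least 2-fold, 11 to 18 runs, 0 to 8 differing among the others and 44 to 87 called against all 3 groups. It gave 7 to 17 genes called in WT, 99 (without Akita replicate 4) to 2270 in Akita and 12 to 326 in Akita + NACET. The difference in gene counts ran from 277136 to 1047717 and in the outside-exon share from -2.77 to -1.38 percentage points. Wherever libraries were left out, the demand of no overlap was easier to meet, so higher numbers of set-apart genes and runs there do not show wider separation.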
